A study of Mus musculus with 6 samples.

Results

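The grouping described here sets tetraploid I, tetraploid II and diploid III, called the first trio, beside tetraploid III, diploid I and diploid II, called the second trio. It was found by counting, for each of the 10 ways to divide 6 cultures into 3 and 3, the genes whose group means differed at least 2-fold, and by taking the grouping with the most. Of 22311 genes, 1420 (6.36%) met that threshold, against 826 when the cultures were divided by ploidy and 561 to 725 in the other 8 groupings. The members were therefore chosen by the same values that are described below, each trio mixes tetraploid and diploid cultures, and the differences carry no test and say nothing about ploidy.

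The series holds expression arrays of mesenchymal stromal cells, which adhere to plastic when marrow is plated and give rise to bone, cartilage and fat, with 1 Affymetrix array per culture. All cultures were grown from mouse bone marrow in stem cell medium, and ploidy had been assigned from propidium iodide staining of DNA and from spectral karyotyping. In the first trio, tetraploid I and diploid III were primary cultures and tetraploid II was a cell line. In the second trio, tetraploid III was a clone made tetraploid artificially, diploid I a clone and diploid II a primary culture. Lines and clones each represent a narrow sample of marrow cells. The labels call the cultures biological repeats but name no animals, and they do not say which cells the artificial clone was made from, so shared parentage within a trio was not tested.

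The genes described first are those of the amino acid response, which were lower in the first trio, and those of sterol synthesis, which were higher in part of it. When amino acids run short or unfolded protein builds up in the endoplasmic reticulum, kinases phosphorylate the translation factor eIF2 and the transcription factor ATF4 is made in larger amounts. ATF4 acts on genes for amino acid synthesis, amino acid import and the loading of transfer RNAs, and on feedback regulators such as Trib3, Chac1 and Ddit3. Sterol synthesis genes are driven by SREBP transcription factors, which are released when membrane cholesterol is low.

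The promoters of Trib3, Chac1, Slc7a11 and Asns are printed because these amino acid response genes were lower in the first trio, and that of Hspa5 because it belongs to the other arm of the stress response and overlapped between the trios. Each window runs from 250 bases before to 50 bases after the annotated start, 300 bases 5′ to 3′ on the gene's strand, from RefSeq on build GRCm38.p6, and the array files state no build. Capitals in the windows of Trib3, Chac1, Slc7a11 and Asns mark TGATGNAA, the core of the element through which ATF4 and C/EBP factors act, read on either strand. Capitals in the window of Hspa5 mark CCAAT, any 9 bases and then CCACG, the element of the unfolded protein response bound by ATF6. Trib3, a pseudokinase that dampens ATF4, starts in chr2:152344011-152344310 on the minus strand. Chac1, an enzyme that breaks down glutathione, starts in chr2:119350992-119351291 on the plus strand. Slc7a11, the cystine importer, starts in chr3:50443564-50443863 on the minus strand, Asns, asparagine synthetase, in chr6:7693160-7693459 on the minus strand, and Hspa5, the main chaperone of the endoplasmic reticulum, in chr2:34771840-34772139 on the plus strand.
Trib3: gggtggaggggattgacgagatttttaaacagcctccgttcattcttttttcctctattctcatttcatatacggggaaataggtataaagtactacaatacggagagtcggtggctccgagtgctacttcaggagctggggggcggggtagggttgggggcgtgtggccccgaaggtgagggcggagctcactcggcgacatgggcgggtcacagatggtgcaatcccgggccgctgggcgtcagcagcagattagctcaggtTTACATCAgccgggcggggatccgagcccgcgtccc
Chac1: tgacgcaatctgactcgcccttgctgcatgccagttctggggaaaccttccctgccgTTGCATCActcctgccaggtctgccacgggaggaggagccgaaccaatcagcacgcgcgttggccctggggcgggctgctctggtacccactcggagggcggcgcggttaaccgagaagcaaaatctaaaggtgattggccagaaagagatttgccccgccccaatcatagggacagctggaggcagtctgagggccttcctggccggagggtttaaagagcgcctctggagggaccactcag
Slc7a11: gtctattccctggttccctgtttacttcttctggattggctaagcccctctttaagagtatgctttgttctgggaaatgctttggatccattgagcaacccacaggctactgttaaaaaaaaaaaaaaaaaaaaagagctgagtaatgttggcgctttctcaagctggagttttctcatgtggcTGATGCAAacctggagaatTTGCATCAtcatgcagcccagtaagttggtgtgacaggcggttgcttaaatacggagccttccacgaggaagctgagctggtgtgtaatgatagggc
Asns: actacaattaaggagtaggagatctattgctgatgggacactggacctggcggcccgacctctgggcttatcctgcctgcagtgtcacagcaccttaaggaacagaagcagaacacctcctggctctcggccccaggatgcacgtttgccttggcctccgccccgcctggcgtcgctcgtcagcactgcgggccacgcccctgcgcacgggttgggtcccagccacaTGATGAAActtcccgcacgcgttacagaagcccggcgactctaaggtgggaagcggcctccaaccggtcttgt
Hspa5: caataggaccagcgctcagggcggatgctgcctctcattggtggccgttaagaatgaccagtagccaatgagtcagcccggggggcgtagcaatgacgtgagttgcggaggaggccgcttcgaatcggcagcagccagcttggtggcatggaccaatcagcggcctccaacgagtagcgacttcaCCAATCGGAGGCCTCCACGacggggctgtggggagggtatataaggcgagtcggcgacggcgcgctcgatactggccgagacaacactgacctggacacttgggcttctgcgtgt

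TGATGNAA was found in the windows of 1219 of 27025 genes with a RefSeq promoter, a share of 4.51%. It was present in 8 of 23 promoters of the list of unfolded protein and amino acid response genes (34.8%), namely Atf3, Herpud1, Trib3, Chac1, Asns, Slc7a11, Vldlr and Nupr1. Among cytosolic aminoacyl-tRNA synthetases it was present in 5 of 13 promoters (38.5%). On a list of enzymes for cysteine, proline and other amino acids it was present in 3 of 7 (42.9%), namely Pycr1, Asns and Got1. It was present in 0 of 14 promoters of mitochondrial synthetases and in 0 of 10 of serine, glycine and one-carbon enzymes. Among amino acid transporters it was present in 2 of 15 (13.3%), and among endoplasmic reticulum chaperones and export genes in 1 of 20 (5%). The longer element was found in 37 of 27025 genes (0.137%) and in 9 of 20 promoters of endoplasmic reticulum chaperones and export genes (45%). Both strands were searched, a match is only a match of letters, and a window without one says nothing about the factor. The lists hold genes of the kinds named above as ATF4 targets, some genes such as Asns are on more than 1 list, and the narrower lists were drawn up after the values had been seen. A share above 4.51% is therefore no evidence on why these genes differed between the trios, which was not tested.

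Expression is given as log2 intensity after the authors' normalisation, and a difference of 1 is 2-fold. Within the first trio values are listed for tetraploid I, tetraploid II and diploid III, and within the second trio for tetraploid III, diploid I and diploid II. A difference is the mean of the first trio minus the mean of the second, with no error or p-value, since the grouping was chosen from it. A gene is said to separate the trios when its 3 values in the first trio all lie above, or all below, its 3 values in the second. The lower quartile of the arrays lay between 3.82 and 4.02, so values near 4 are close to the dimmest signals and fold sizes that rest on them are uncertain.

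Some arrays stand apart. Values spread less in diploid III, with an interquartile range of 2.75, than on the other 5 arrays, with 3.16 to 3.24. Tetraploid II alone had Y-linked signal, with Ddx3y at 9.80 and 3.88 to 4.23 elsewhere, and Xist, the RNA of the inactive X, was at 3.68 there and 9.71 to 11.04 elsewhere. The endothelial cadherin Cdh5 was at 11.03 in diploid III and 3.70 to 3.79 elsewhere, and the endothelial receptor Adgrf5 at 9.87 and 3.70 to 4.02. Diploid III was the highest culture for 18 of 25 endothelial markers, with Flt1 at 7.32 there and 3.89 to 4.45 elsewhere, while Pecam1 at 4.18, Tek at 3.63 and Kdr at 3.63 were dim in it. It was also the highest for 14 of 25 myeloid, 13 of 20 lymphocyte and 14 of 22 epithelial markers. Its lower quartile, 4.02, was the highest of the arrays. Being the highest culture for most members was therefore not particular to the endothelial list. Without diploid III, 746 genes were at least 2-fold higher and 735 lower in the remaining first trio. Without tetraploid II the counts were 627 and 933, against 621 (2.78%) and 799 (3.58%) with all 6 cultures. Centring each array on its median gave 506 and 1049, and filtering dim probe sets gave 417 and 747, so that the balance of higher and lower counts depends on the scaling.

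Of the genes at least 2-fold apart, 304 higher (1.36%) and 586 lower (2.63%) separated the trios, and 4296 genes (19.3%) separated them at any size. Just above the threshold were Ephx2 at 1.004 and Notch1 at 1.005, and just below it Vcam1 at 0.9998 and Myadm at 0.9986. On the lower side Plk2 lay at -1.002 just inside, and Lpcat4 at -0.9998 just outside. The median difference over all genes was 0.03, with 12942 genes above 0 and 9369 below.

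The second trio was a compact set and the first was not. Over 22311 genes, cultures of the first trio correlated with one another at Pearson r of 0.922 to 0.950, and cultures of the second at 0.981 to 0.986. Between trios the correlation was 0.922 to 0.963. Tetraploid I was closer to tetraploid III (r = 0.963, 1501 genes at least 2-fold apart) than to tetraploid II (r = 0.950, 1863 genes) or diploid III (r = 0.930, 2778 genes). Tetraploid III, diploid I and diploid II differed from one another at 547 to 776 genes, and they comprised an artificial tetraploid clone, a diploid clone and a diploid primary culture. The median standard deviation of a gene was 0.24 in the first trio and 0.113 in the second, and 4562 genes had a range of at least 2-fold within the first trio, against 1272 within the second. These correlations are across genes of the same arrays, and genes are not independent replicates.

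**Figure D1:**
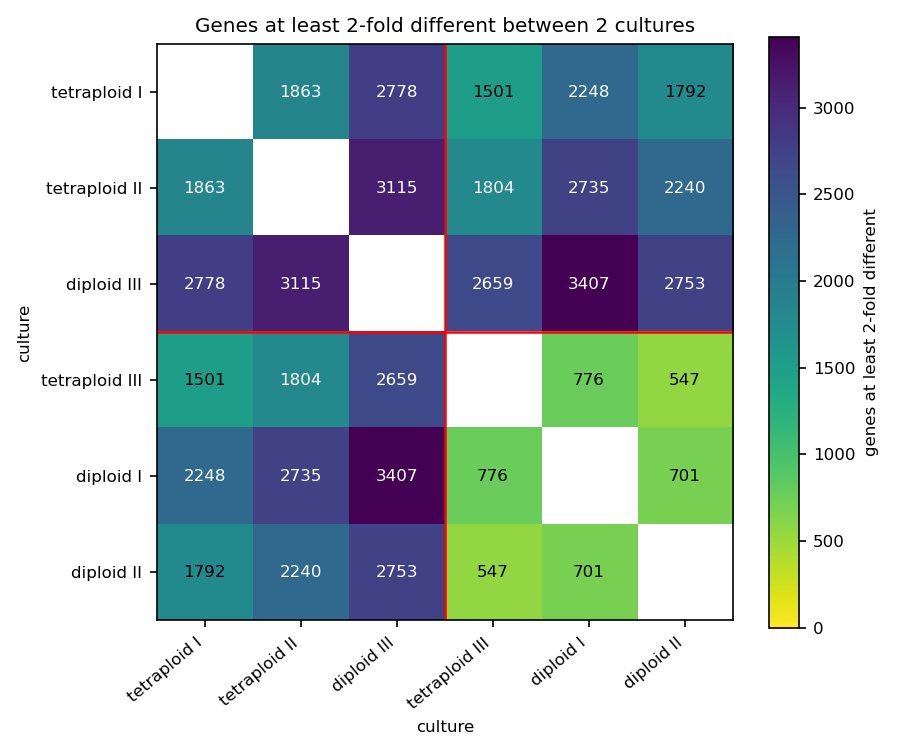
Number of genes at least 2-fold apart between each pair of the 6 cultures, with red lines dividing the first trio (tetraploid I, tetraploid II, diploid III) from the second (tetraploid III, diploid I, diploid II). The 3 pairs within the second trio have 547 to 776 such genes, and the 3 pairs within the first have 1863 to 3115, inside the range of 1501 to 3407 between trios.

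Few genes lay at least 2-fold beyond the whole second trio in all 3 cultures of the first. By a gap of any size, 304 of the 2-fold higher and 586 of the 2-fold lower genes separated the trios. For each gene the cultures of the first trio lying at least 2-fold beyond every culture of the second were counted. Among the 621 higher genes this held for all 3 cultures at 40 genes, for 2 cultures at 237, for 1 culture at 308 and for none at 36. Among the 799 lower genes it held for all 3 at 103, for 2 at 271, for 1 at 315 and for none at 110. Tetraploid II was the lone culture most often among higher genes, with 140, and diploid III most often among lower genes, with 176.

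**Figure D2:**
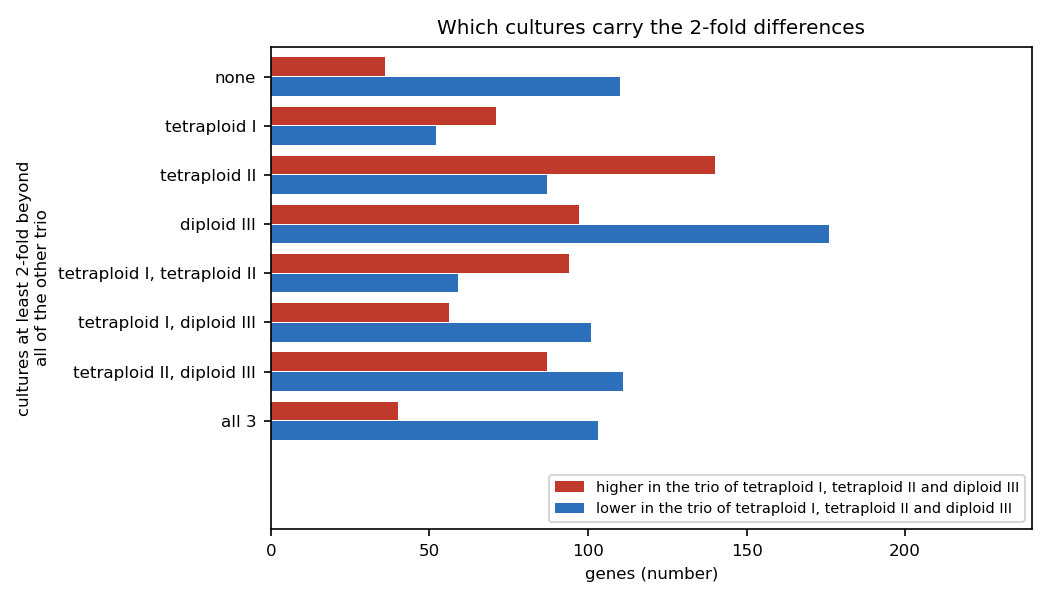
Horizontal bars give the number of genes (x axis) whose values in the named first-trio cultures lie at least 2-fold beyond all cultures of the second trio, red for genes higher and blue for genes lower in the first trio. All 3 cultures do so at 40 higher and 103 lower genes, and diploid III alone at 176 lower genes.

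Genes of the amino acid response were lower in the first trio as a group. Of 26 genes on the list of unfolded protein and amino acid response, 16 were at least 2-fold lower, 12 of them separating the trios, and 0 were 2-fold higher. The median difference was -1.52, beside 0.03 over all genes, and it lay between -1.72 and -1.20 when each culture was left out or the values were rescaled. The mean level of the list was 7.92, 8.85 and 8.08 in the first trio, against 9.65, 9.91 and 9.44 in the second. Tetraploid II was the nearest of the first trio to the second. Over all genes, 2.78% were at least 2-fold higher and 3.58% lower, the shares beside which this and later list counts stand. Of the 1139 measured genes of the 46 gene lists used, 274 passed 2-fold in either direction, a larger share. A list count above the shares over all genes was thus usual. The narrower lists that follow were drawn up after the values had been seen. They reuse genes of this list, among them Trib3, Chac1, Cth, Asns, Psat1 and Slc7a11, so their counts are not separate results.

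Cth, which makes cysteine from cystathionine, was among the largest differences, at 4.73, 7.50 and 4.11 in the first trio, against 9.72, 10.47 and 9.12 in the second. Its log2 difference was -4.32, 20.0-fold lower, and tetraploid II was nearer to the second trio than the other two without reaching it. Of 9 enzymes on the list for cysteine, proline and other amino acids, 6 were at least 2-fold lower and all 6 separated the trios. That list also holds Asns, Got1 and Gpt2, which make neither cysteine nor proline. Asns stood at 10.80, 11.20 and 10.36 in the first trio, against 12.42, 13.18 and 12.03 in the second (log2 difference -1.76). It was bright in every culture, so this difference does not rest on dim values. Pycr1, of proline synthesis, and Gpt2, an alanine transaminase, differed by -1.79 and -1.94 and also separated the trios.

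RNA of the genes for all 3 dedicated steps of serine synthesis was lower in the first trio. Phgdh, the entry enzyme, stood at 8.42, 8.95 and 9.28 in the first trio, against 10.23, 10.56 and 9.86 in the second (log2 difference -1.33). Psat1, the transaminase, stood at 9.93, 9.75 and 7.76 in the first trio, against 11.25, 11.33 and 10.83 in the second (log2 difference -1.99). Psph, the final phosphatase, stood at 5.62, 7.50 and 6.01 in the first trio, against 8.82, 9.21 and 8.76 in the second (log2 difference -2.55). Diploid III was the lowest culture for Psat1 and the highest of the first trio for Phgdh, and none of these 3 genes overlapped between the trios. Mthfd2, a mitochondrial folate enzyme, did overlap: tetraploid II, at 10.38, lay within the second trio (9.52 to 10.62), while tetraploid I and diploid III were at 7.11 and 7.28.

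Amino acid transporters were mixed. Of 21, the number at least 2-fold lower was 8, of which 7 separated the trios, and the number 2-fold higher was 1. The median difference was -0.16, and it lay between -1.32 and -0.09 across the alternatives, so its size was not stable. Slc7a11, which imports cystine for glutathione, stood at 4.32, 4.21 and 4.86 in the first trio, against 7.57, 9.41 and 7.24 in the second (log2 difference -3.61). Slc1a5, a glutamine and neutral amino acid carrier, stood at 8.26, 8.42 and 7.75 in the first trio, against 10.45, 10.96 and 10.02 in the second (log2 difference -2.33). Slc7a5, the large neutral amino acid carrier, stood at 8.63, 9.81 and 8.72 in the first trio, against 10.88, 11.40 and 10.35 in the second (log2 difference -1.82). All 3 carriers separated the trios, and Slc7a11 was near the dimmest signals in the whole first trio. Slc43a2, another neutral amino acid carrier, was the 1 higher transporter, at 4.17, 4.91 and 5.81 in the first trio, against 3.83, 3.82 and 4.09 in the second (log2 difference 1.05).

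The enzymes that load amino acids onto transfer RNA were lower in the cytosolic set and less so in the mitochondrial set. Of 20 cytosolic synthetases, 19 lay below 0, 10 were at least 2-fold lower and all 10 separated the trios, with a median difference of -0.999. Wars, the tryptophan enzyme, stood at 8.79, 8.68 and 8.41 in the first trio, against 10.83, 10.85 and 10.48 in the second (log2 difference -2.09). Its values were tight in both trios. Lars, Rars and Nars differed by -1.60, -1.48 and -1.47. Of 17 mitochondrial synthetases, 2 were at least 2-fold lower, with a median of -0.43.

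Regulators and feedback genes of the stress response were lower in the first trio, and the factor itself differed less. Atf4 stood at 9.48, 10.01 and 9.64 in the first trio, against 10.34, 10.49 and 10.20 in the second (log2 difference -0.63). Of 19 such regulators, 12 were at least 2-fold lower, 8 of them separating the trios, and 1 was higher. Trib3 stood at 5.62, 8.71 and 7.06 in the first trio, against 10.37, 10.62 and 10.36 in the second (log2 difference -3.32). Chac1 stood at 5.84, 7.17 and 5.98 in the first trio, against 8.96, 9.41 and 8.59 in the second (log2 difference -2.66). Ddit3, also called CHOP, stood at 6.67, 8.71 and 5.55 in the first trio, against 9.98, 9.73 and 8.97 in the second (log2 difference -2.58). The second trio was tight for Trib3, and tetraploid II was the highest of the first trio for all 3. Eif2ak3, the kinase known as PERK that senses unfolded protein, was the higher one, at 8.09, 8.46 and 8.02 in the first trio, against 6.60, 6.66 and 6.64 in the second (log2 difference 1.56).

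Chaperones of the endoplasmic reticulum lay near 0 as a list. Of 22 chaperone and export genes, 1 was at least 2-fold higher and 1 lower, and the median difference was 0.19, a sign that turned under at least 1 alternative (-0.03 to 0.37). Hspa5 stood at 10.84, 12.18 and 11.55 in the first trio, against 12.00, 11.98 and 11.84 in the second (log2 difference -0.42), with overlap. Ero1a, an oxidase that forms disulfide bonds and is also induced by hypoxia, stood at 9.68, 10.05 and 9.13 in the first trio, against 12.21, 12.32 and 11.93 in the second (log2 difference -2.53). Calr, the chaperone calreticulin, was the higher one, with a log2 difference of 1.21.

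**Figure D3:**
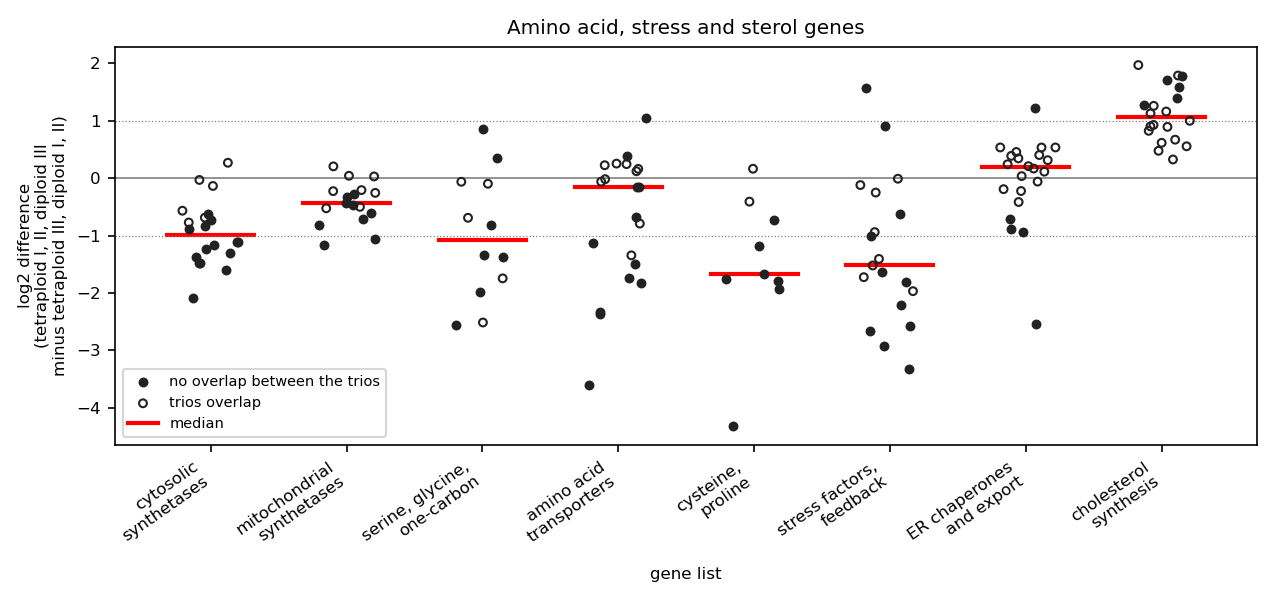
Log2 difference of each gene (y axis, first trio minus second) for 8 lists of amino acid, stress and sterol genes, with filled points for genes that separate the trios, open points for genes that overlap, red lines for medians and dotted lines at 2-fold. The cytosolic synthetases have a median of -0.999 and the stress regulators -1.52, while the endoplasmic reticulum chaperones lie around 0.19 and cholesterol enzymes around 1.06.

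Beside these lists, ribosome biogenesis genes were lower and cytosolic ribosomal protein genes only slightly so. Of 27 ribosome biogenesis and Myc genes, 25 lay below 0 and 4 were at least 2-fold lower, with a median of -0.75. Their mean level was 8.43, 8.23 and 8.30 in the first trio, against 8.82, 9.38 and 8.80 in the second. Rrp1b, a nucleolar protein, stood at 6.23, 6.08 and 6.06 in the first trio, against 6.93, 8.34 and 7.10 in the second (log2 difference -1.34). Fbl, the methyltransferase fibrillarin, differed by -1.16 at its brighter probe set and by -0.37 at its other. The median of 28 cytosolic ribosomal protein genes was -0.29, which turned to 0.03 when arrays were scaled to the same interquartile range.

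Glycolysis and hypoxia genes were lowest in tetraploid I and tetraploid II. Of 31, 10 were at least 2-fold lower, 7 separated the trios, and the median difference was -0.50. The mean level was 9.02 and 8.85 in tetraploid I and tetraploid II and 9.69 in diploid III, against 9.86 to 10.02 in the second trio. Vegfa, the vascular growth factor, stood at 8.49, 9.02 and 8.92 in the first trio, against 10.31, 10.49 and 10.28 in the second (log2 difference -1.55). Car9, a carbonic anhydrase induced by hypoxia, stood at 3.48, 3.48 and 3.94 in the first trio, against 4.84, 8.44 and 8.38 in the second (log2 difference -3.59). Tetraploid III was well below its trio for Car9, so that gene follows diploid I and diploid II more than the trio. Egln3, a prolyl hydroxylase that senses oxygen, overlapped: diploid III, at 9.65, was the highest culture, with tetraploid I and tetraploid II at 4.90 and 4.21.

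Sterol synthesis genes were higher in tetraploid I and tetraploid II, and diploid III lay near the second trio. Of 34 sterol and fatty acid genes, 16 were at least 2-fold higher, 11 separated the trios and 0 were 2-fold lower, with a median of 0.96. The mean level was 9.005, 8.94 and 7.64 in the first trio, against 7.51, 7.55 and 7.47 in the second. The median was 1.40 without diploid III and 0.63 without tetraploid I. Insig1, which holds SREBP in the endoplasmic reticulum, stood at 10.48, 11.81 and 9.19 in the first trio, against 8.03, 7.91 and 8.25 in the second (log2 difference 2.43). Hmgcs1, an early enzyme of the mevalonate pathway, stood at 10.17, 10.29 and 8.22 in the first trio, against 7.93, 7.89 and 7.52 in the second (log2 difference 1.78). Idi1, a later enzyme of that pathway, stood at 10.02, 9.48 and 6.15 in the first trio, against 6.46, 6.66 and 6.63 in the second (log2 difference 1.97). Diploid III was the lowest of all 6 cultures for Idi1, so the trios overlapped there and the difference rests on 2 cultures. Fasn, fatty acid synthase, was higher in all 3, at 8.99, 8.91 and 9.20 in the first trio, against 7.71, 7.71 and 8.09 in the second (log2 difference 1.19). Of the 20 cholesterol synthesis enzymes alone, 10 were at least 2-fold higher and 5 separated the trios.

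Interferon-responsive genes were highest in tetraploid I. Of 31, 17 were at least 2-fold higher in the first trio, 7 separated the trios, and the median difference was 1.07. The mean level was 7.64, 4.97 and 5.996 in the first trio, against 4.97, 5.01 and 5.09 in the second, and tetraploid II was level with the second trio. The median was 0.27 without tetraploid I and 1.84 without tetraploid II. Ifit3, an antiviral gene, stood at 10.09, 7.15 and 6.86 in the first trio, against 4.84, 4.86 and 5.12 in the second (log2 difference 3.09). Usp18, an inhibitor of interferon signalling, stood at 8.78, 3.63 and 7.14 in the first trio, against 3.53, 3.61 and 3.58 in the second (log2 difference 2.94). Ifit3 was above the second trio in every culture of the first, while for Usp18 tetraploid II was level with the second trio.

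**Figure D4:**
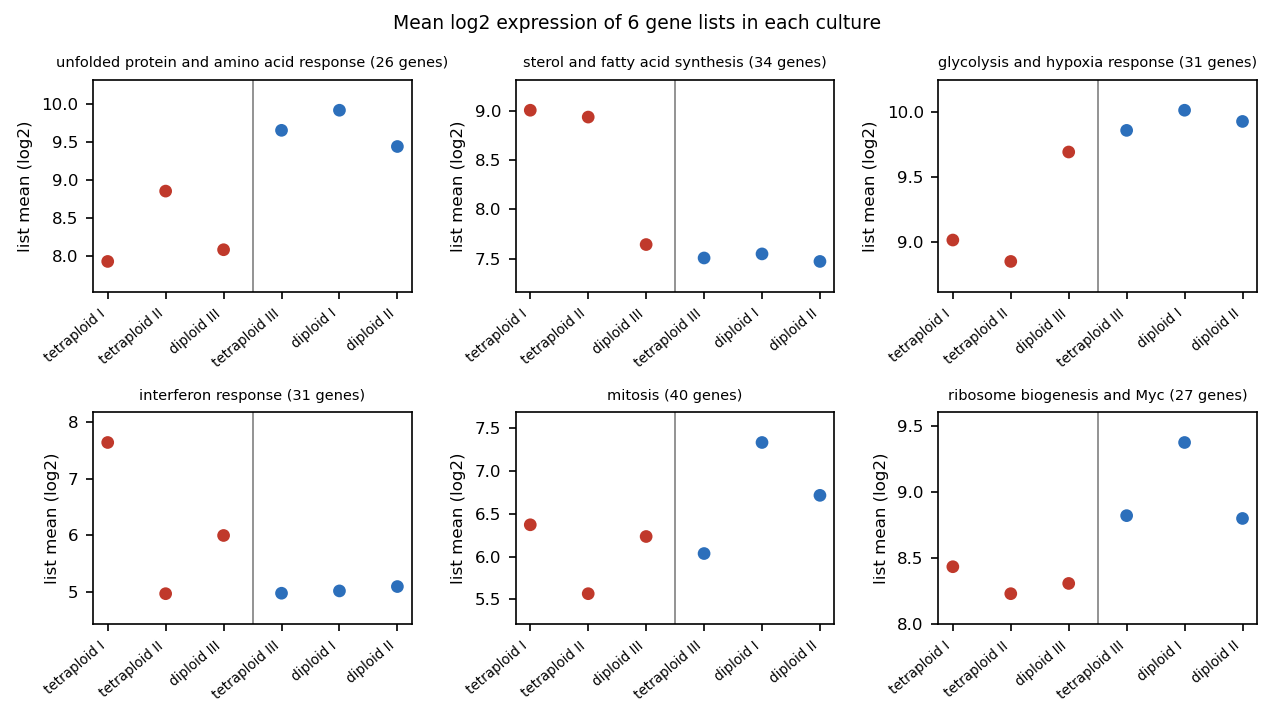
Mean log2 expression of 6 gene lists in each culture, one panel per list with its own y axis, red for the first trio and blue for the second. Stress and amino acid genes separate the trios (7.92 to 8.85 in the first, against 9.44 to 9.91 in the second), sterol genes are high in tetraploid I and tetraploid II, and interferon genes are highest in tetraploid I at 7.64.

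Mitosis genes were lower in the first trio on average, and tetraploid II was the lowest culture. Of 40, 38 lay below 0, 9 were at least 2-fold lower and 4 separated the trios, with a median of -0.51. The mean level was 6.37, 5.57 and 6.23 in the first trio, against 6.03, 7.33 and 6.71 in the second. The trios overlapped, since tetraploid III lay below tetraploid I and diploid III. Bub1, a spindle checkpoint kinase, stood at 6.01, 4.79 and 5.21 in the first trio, against 6.27, 7.92 and 7.53 in the second (log2 difference -1.91). DNA replication genes had a median of -0.23 over 32 genes, with Rrm2, a subunit of ribonucleotide reductase, higher by 1.16 and Rfc4, a clamp loader subunit, different by -1.34.

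Outside these lists the widest gaps between the nearest values of the trios named single genes of many kinds. On the higher side Cemip, which takes part in hyaluronan breakdown, stood at 10.38, 10.83 and 11.74 in the first trio, against 7.66, 6.23 and 8.05 in the second (log2 difference 3.67). Plat, tissue plasminogen activator, stood at 8.65, 9.71 and 9.64 in the first trio, against 6.35, 5.31 and 6.35 in the second (log2 difference 3.33). Slco2a1, a prostaglandin transporter, stood at 9.07, 10.09 and 11.57 in the first trio, against 6.94, 6.92 and 6.42 in the second (log2 difference 3.48). These 3 genes were bright in the whole first trio, and diploid III had the highest value for Cemip and Slco2a1. The rest of the 15 widest gaps on this side were Lurap1l, Fabp4, Peg10, Grb10, Sorcs2, Serpinb1a, Tspan12, Pparg, Cd24a, Nol3, Ifit3 and Npr3, with differences of 2.16 to 4.81.

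Imprinted and fat cell genes were among them. Grb10, an imprinted adaptor that restrains insulin receptor signalling, stood at 6.80, 10.18 and 10.11 in the first trio, against 4.65, 3.78 and 4.22 in the second (log2 difference 4.81, 28.1-fold). Peg10, an imprinted gene derived from a retrotransposon, stood at 7.10, 7.28 and 9.68 in the first trio, against 4.82, 4.65 and 4.63 in the second (log2 difference 3.32). Tetraploid I had the lowest Grb10 of its trio and diploid III the highest Peg10, and neither gene overlapped. Of 33 imprinted genes, 6 were at least 2-fold higher and 2 lower, with a median of 0.09. Igf2r, a receptor that clears Igf2, was among the lower ones, with a log2 difference of -1.33.

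Pparg, the master transcription factor of fat cells, stood at 7.72, 9.76 and 8.80 in the first trio, against 5.83, 5.34 and 5.51 in the second (log2 difference 3.20). Fabp4, a fatty acid carrier of fat cells that capillary endothelium also makes, stood at 7.24, 9.66 and 10.78 in the first trio, against 4.95, 4.66 and 4.43 in the second (log2 difference 4.55). Both separated the trios. Later fat cell genes differed among themselves: Adipoq was at 3.96, 6.41 and 4.43 in the first trio, against 3.83 to 3.88 in the second, and Plin1 was at 3.97 to 4.27 in the first trio, against 3.94 to 4.08 in the second. Plin4, a coat protein of lipid droplets, did separate the trios, at 4.44, 9.47 and 6.64 in the first trio, against 3.86, 4.04 and 3.82 in the second (log2 difference 2.94). Of 26 fat cell genes, 8 were at least 2-fold higher and 4 lower, with a median of 0.12. Dgat2, which makes triglyceride, was among the lower ones (log2 difference -2.57). The mean of 25 endothelial markers was 4.09, 3.90 and 5.11 in the first trio, against 4.03 to 4.05 in the second, and its part in the Fabp4 value of diploid III was not tested. In bulk RNA, fewer cells of a type and less RNA per cell cannot be told apart.

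On the lower side the widest gap was that of Avil, which encodes the actin-binding protein advillin, at 4.10, 4.02 and 4.35 in the first trio, against 8.07, 7.79 and 9.64 in the second (log2 difference -4.34). Stard5, a carrier of sterols and bile acids, stood at 5.45, 6.99 and 6.62 in the first trio, against 10.22, 10.49 and 10.11 in the second (log2 difference -3.92). Capn6, a calpain without protease activity, stood at 5.29, 5.20 and 3.90 in the first trio, against 9.25, 8.81 and 8.40 in the second (log2 difference -4.02). The second trio spanned under 2-fold for Stard5 and Capn6, and the first trio was near the dimmest signals for Avil. Foxf1, a transcription factor of lateral mesoderm, stood at 4.53, 5.25 and 6.20 in the first trio, against 8.93, 8.58 and 8.70 in the second (log2 difference -3.41), and its other probe set gave -3.60. Car6 and P2rx3 gave -3.49 and -3.17 at their brighter probe sets and 0.06 and 0.09 at a dim second one, so their values depend on the probe set. The rest of the 15 were Fam171b, Ostn, Slc7a11, Nrip2, Nt5e, Kcnt2, Arhgap20, Sh2d6 and Mogat2, with differences of -3.61 to -2.55.

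**Figure D5:**
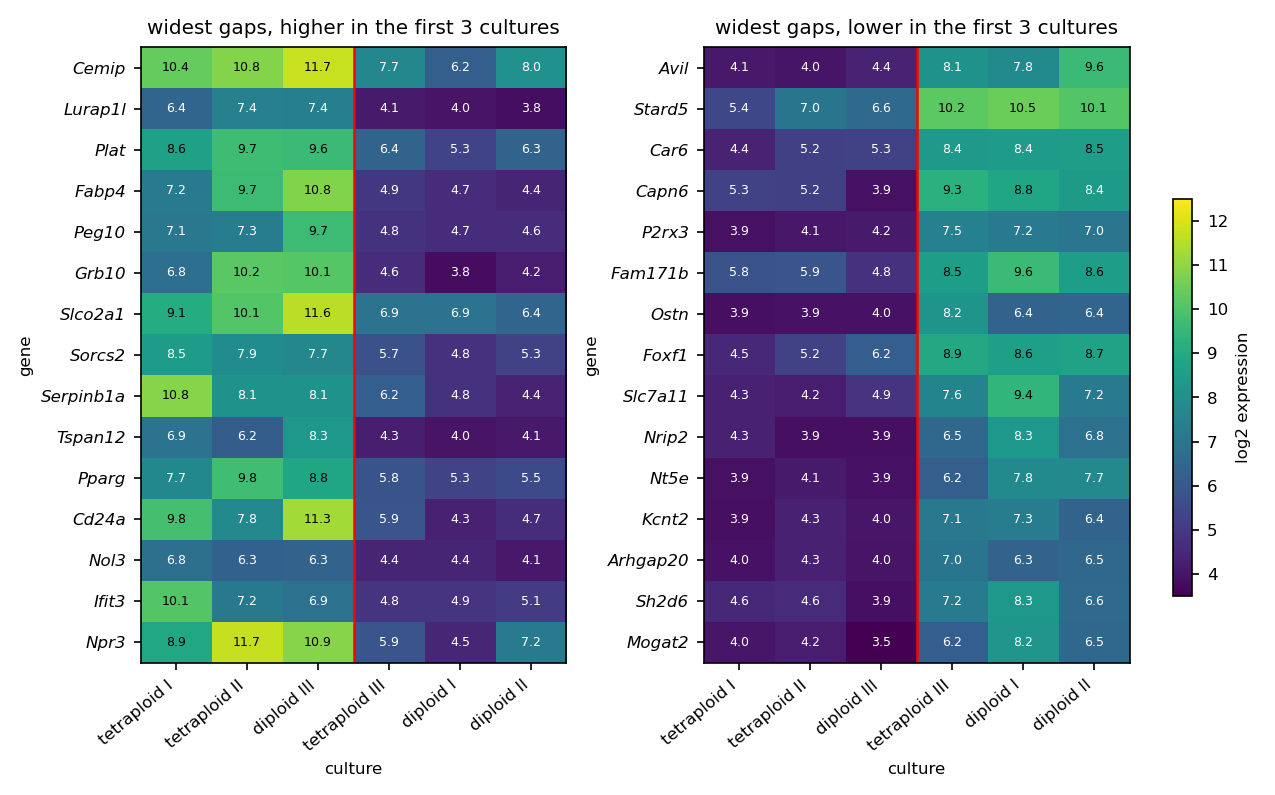
Log2 expression (colour and printed value) of the 15 genes on each side with the widest gap between the nearest values of the trios, cultures along the x axis, with a red line between the first trio and the second. Cemip is at 10.38 or more in the first trio and at most 8.05 in the second, and Avil at most 4.35 in the first and at least 7.79 in the second.

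Npr3 and Ostn, which are receptor and ligand, lay on opposite sides. Npr3, the receptor that clears natriuretic peptides, stood at 8.89, 11.70 and 10.85 in the first trio, against 5.86, 4.47 and 7.18 in the second (log2 difference 4.65). Ostn, a peptide that binds Npr3, ran the other way, at 3.86, 3.94 and 3.95 in the first trio, against 8.15, 6.36 and 6.45 in the second (log2 difference -3.07). Both separated the trios, and Ostn was near the dimmest signals in the first trio. Ptgs2, the inducible cyclooxygenase of prostaglandin synthesis, stood at 7.86, 5.52 and 4.76 in the first trio, against 9.46, 12.04 and 11.19 in the second (log2 difference -4.84), opposite in sign to the transporter Slco2a1. Lif, an interleukin 6 family cytokine, differed by -3.05 and separated the trios, and Cxcl5, a neutrophil chemokine, stood at 4.95, 9.27 and 7.52 in the first trio, against 12.21, 10.56 and 11.68 in the second (log2 difference -4.24). Of 29 chemokine and cytokine genes, 4 were at least 2-fold higher and 4 lower, against 2.78% and 3.58% over all genes, and the median was 0.05.

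Among the largest differences, Mela, Sprr1a, Lgr5, Car3 and Ccn3 rested on 2 cultures each. Mela, a melanoma antigen gene of retroviral origin, had the largest difference, at 4.00, 13.54 and 13.76 in the first trio, against 3.87, 4.50 and 4.06 in the second (log2 difference 6.29). Sprr1a, a protein of the cornified envelope, stood at 11.0002, 4.05 and 11.73 in the first trio, against 3.88, 3.95 and 3.74 in the second (log2 difference 5.07). Lgr5, a receptor for R-spondins, stood at 9.98, 10.14 and 3.93 in the first trio, against 3.86, 3.96 and 4.06 in the second (log2 difference 4.06). In each of these 3 genes a different culture of the first trio was level with the second. Car3, a carbonic anhydrase of muscle and fat, stood at 3.54, 11.77 and 8.18 in the first trio, against 3.60, 3.53 and 3.52 in the second (log2 difference 4.28). Ccn3, a secreted matricellular protein, stood at 8.05, 13.39 and 4.04 in the first trio, against 4.61, 4.22 and 4.08 in the second (log2 difference 4.19). Tetraploid I was level with the second trio for Car3, and diploid III for Ccn3. Sfrp1, a secreted Wnt antagonist, was at 10.14, 11.12 and 9.87 in the first trio, against 8.36, 3.78 and 3.67 in the second (log2 difference 5.11). There tetraploid III sat apart from diploid I and diploid II. Cd34, a surface protein of progenitors, stood at 4.34, 5.74 and 9.17 in the first trio, against 9.91, 11.11 and 10.22 in the second (log2 difference -3.99). Fhl1, a LIM domain protein of muscle, and Dpysl3, a cytoskeletal protein of growing axons, differed by -3.73 and -3.67, and all 3 of these lower genes separated the trios.

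Over 23 stromal markers the median difference was -0.15, a sign that turned under at least 1 alternative (-0.28 to 0.09). A difference between the trios does not show what the cells are, so the levels of some markers are given. Prrx1 was at 9.39 to 11.48 in the first trio, against 10.12 to 10.34 in the second, and Itgb1 at 11.80 to 12.00 in the first trio, against 11.72 to 11.92 in the second. Pdgfrb was at 10.72 to 11.38 in the first trio, against 9.07 to 10.83 in the second, and Ptprc, the leukocyte antigen, was at 3.79 to 4.25 in the first trio, against 3.72 to 3.83 in the second. These 3 stromal genes, picked from the 23, were bright and the leukocyte gene was dim in every culture. Other members of the list varied. Cd200 was at 8.63, 3.93 and 6.80 in the first trio, against 4.55, 3.91 and 4.55 in the second. Grem1 was at 4.30, 9.02 and 4.37 in the first trio, against 4.58, 7.12 and 5.83 in the second. Nt5e, the ectonucleotidase CD73 used to define stromal cells, stood at 3.90, 4.14 and 3.95 in the first trio, against 6.21, 7.76 and 7.73 in the second (log2 difference -3.24). Thy1, or CD90, was at 10.82, 3.96 and 4.35 in the first trio, against 6.29, 8.56 and 5.51 in the second. Eng, or CD105, was at 9.71, 3.80 and 10.78 in the first trio, against 9.14, 8.98 and 8.80 in the second. Nt5e was near the dimmest signals in all 3 cultures of the first trio, Thy1 in 2 of them, and Eng in tetraploid II. Ly6a, or Sca-1, ran the other way, at 12.62, 11.96 and 12.17 in the first trio, against 11.04, 10.60 and 8.87 in the second (log2 difference 2.08).

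Contractile genes that passed 2-fold were all lower, and matrix genes passed it on both sides. Cnn1, smooth muscle calponin, stood at 6.10, 5.54 and 5.75 in the first trio, against 10.77, 9.03 and 8.06 in the second (log2 difference -3.49). Tagln, another actin-associated smooth muscle protein, was at 8.25, 8.62 and 9.21 in the first trio, against 11.47, 11.35 and 10.18 in the second (log2 difference -2.31). Both separated the trios, and the late smooth muscle myosin Myh11 was dim throughout, at 3.88 to 4.26 in the first trio, against 3.92 to 3.98 in the second. Of 25 smooth muscle and pericyte genes, 0 were at least 2-fold higher and 5 lower, with a median of -0.02, against 2.78% higher and 3.58% lower over all genes. Of the 5 lower genes 2 separated the trios, and 12 of the 25 lay above 0. Myl9 and Actg2 were lower by 2-fold but overlapped. Tetraploid I, at 10.37 and 9.62, lay within the second trio (10.33 to 11.29 and 7.35 to 11.28). Col6a2, a chain of collagen VI, stood at 9.78, 10.39 and 10.15 in the first trio, against 8.88, 8.36 and 7.48 in the second (log2 difference 1.87), and Col6a1 differed by 1.51. Col11a1 ran the other way, at 6.40, 7.39 and 5.43 in the first trio, against 7.99, 8.45 and 8.19 in the second (log2 difference -1.80). Of 28 matrix protease and inhibitor genes, 9 were at least 2-fold higher and 1 lower, with a median of 0.47, and of 36 proteoglycans and matrix glycoproteins 12 were higher and 4 lower, with a median of 0.23.

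Growth factor genes gave opposite signs at single members. Igfbp4, an IGF-binding protein, stood at 8.51, 6.87 and 7.42 in the first trio, against 11.07, 10.21 and 11.24 in the second (log2 difference -3.24). Tgfb2 stood at 5.73, 8.57 and 7.71 in the first trio, against 4.67, 4.75 and 4.25 in the second (log2 difference 2.78). Pdgfc stood at 6.62, 8.05 and 7.76 in the first trio, against 9.21, 10.14 and 9.60 in the second (log2 difference -2.17). All 3 separated the trios. Gclm, a subunit of the enzyme that starts glutathione synthesis, differed by -2.19, beside Slc7a11 and Chac1, and the median of 24 NRF2 and glutathione genes was -0.16.

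The comparison the labels name, tetraploid against diploid cultures, was fitted on the same values. Of 25917 probe sets, 0 (0%) had an adjusted p under 0.05 in limma with Benjamini-Hochberg adjustment. An unadjusted p under 0.05 (limma) was found at 1332, near the share that this threshold yields when no probe set differs. Avil differed by -1.86 between tetraploid and diploid cultures (SE 1.74, limma, adjusted p = 0.876), and Trib3 by -1.11 (SE 1.53, limma, adjusted p = 0.884). Grb10 differed by 1.17 (SE 2.21, limma, adjusted p = 0.908). H19, an imprinted RNA of growing tissue, was at 3.92, 3.97 and 8.33 in the first trio, against 3.75, 8.36 and 10.46 in the second, and its order followed ploidy and not the trios. With all cultures H19 differed by -5.17 (SE 0.606, limma, adjusted p = 0.876) and Lgr5 by 4.01 (SE 1.75, limma, adjusted p = 0.876), and neither was called. Lgr5 was the 1 probe set called when tetraploid III was left out (limma, adjusted p = 0.00401), and H19 the 1 called without diploid II (limma, adjusted p = 0.0208). Both calls thus depended on leaving out 1 culture.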

How the data were processed

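Total RNA of the 6 cultures was hybridised to Affymetrix arrays, per the labels. The deposited value table holds log2 expression per probe set, made by the authors with RMA in Partek, per the submitters' processing notes. The authors' deposited comparison table holds a p-value and a signed fold, treated as a score, per the file headers, and gave the gene symbols. Its 6 per-sample columns matched no sample label and were not used. No source used here gives the genome build.

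Of 35399 probe sets, 25917 had a symbol, updated through RefSeq on GRCm38.p6, and each of 22311 genes took its brightest probe set. Differences are trio means, with no test. The members and the 46 gene lists were chosen with earlier results of these data known, and 8 further lists after the values were seen. The naming rule took the 15 widest gaps and the 10 largest differences per direction, the 3 largest differences per list, the 5 genes next to the threshold on each side, and H19, Xist and Y-linked genes, leaving out predicted genes. The gaps and largest differences are all printed, and of the rest only a selection. Other named genes were chosen after their values were seen. Ploidy was fitted in limma 3.58.1 (R 4.3.3), two-sided, and the step was tested on simulated data. Figures used matplotlib 3.10.9 in Python 3.11.15. The labels name no animals, so the p-values measure only the spread between these samples, which may be in part technical. That spread also holds the Y-linked signal that tetraploid II alone had. Alternatives were quantile normalisation, centring, scaling, a filter on dim probe sets, other probe set rules, other thresholds and leaving out each culture.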

Additional observations from a re-analysis of the deposited data

How the results depend on the processing

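With 3 cultures a trio and a grouping chosen from these values, no alternative bears on chance. Leaving out each culture gave 562 to 746 genes at least 2-fold higher in the first trio and 691 to 1037 lower, of which 320 to 536 and 523 to 870 separated the trios. The higher separating count, 304 with all cultures, was 499 without tetraploid I, 457 without tetraploid II and 536 without diploid III, since fewer cultures need to separate. At 1.5-fold the counts were 1359 higher and 2132 lower, 580 and 1445 of them separating. At 4-fold they were 126 and 134, with 75 and 108 separating. The median absolute difference of all genes was 0.153, with 0.136 to 0.187 when a culture was left out, and 0.365 after the filter on dim probe sets, which tests fewer genes. Ankrd1, -1.54 with all cultures, was 0.42 without tetraploid I and -2.77 without diploid III, and Tbx15, -1.52 with all, was 0.33 without diploid III and -2.72 without tetraploid I. Of 46 lists, the median of 30 turned sign in at least 1 alternative. The median of all genes, 0.03, was -0.09 after centring on medians, -0.10 after scaling and -0.16 over the genes left by the filter on dim probe sets. The ploidy fit called 0 probe sets in all other alternatives and 0 to 1 when a culture was left out. Repeat numbers did not pair the cultures (r = -0.117, -0.149 and -0.337 between deviations of same-numbered cultures), and the fit with the replicate block called 0, with 1400 at an unadjusted p under 0.05 (limma). Signal over background limits genes near the dimmest values.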

Other observations

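Shox2, a limb homeobox gene, stood at 7.07, 7.03 and 4.49 in the first trio, against 7.78, 8.22 and 7.66 in the second (log2 difference -1.69), without overlap. Without diploid III, the lowest culture, the Shox2 difference was -0.84. Over 22 osteoblast genes 0 were at least 2-fold higher and 3 lower, and the median was 0.09. Over 39 Hox genes 5 were at least 2-fold higher and 1 lower, and Hoxa11 was at 7.54 in tetraploid I and 3.78 to 4.06 elsewhere. In the first trio Krt19, a keratin, stood at 9.55, 8.05 and 8.72, against 5.18, 6.95 and 6.54 in the second (log2 difference 2.55), while Epcam and Cdh1, which define epithelium, were dim, at 3.59 to 4.10 in the first trio, against 3.72 to 3.80 in the second.

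The acute phase genes Saa3 and Lcn2 varied among cultures without following the trios. Saa3, a serum amyloid, stood at 11.41, 4.00 and 8.08 in the first trio, against 10.54, 6.03 and 10.83 in the second. Lcn2, an iron carrier of inflammation, stood at 5.54, 3.70 and 13.13 in the first trio, against 12.03, 7.57 and 9.39 in the second. For both, tetraploid II was the lowest culture. Ceruloplasmin, Cp, did separate the trios, at 5.996, 4.77 and 7.10 in the first trio, against 10.08, 8.14 and 10.22 in the second (log2 difference -3.52).

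Markers of other cell types were mostly dim. The mean of the myeloid list was 3.84 to 4.13 in the first trio, against 3.83 to 3.86 in the second. The lymphocyte mean was 3.70 to 3.94 in the first trio, against 3.73 to 3.76 in the second. For erythroid cells and megakaryocytes the mean was 4.12 to 4.52 in the first trio, against 4.08 to 4.12 in the second, and for neural and glial cells 4.04 to 4.33 in the first trio, against 4.06 to 4.26 in the second. Of 25 myeloid markers 2 were at least 2-fold higher, Lyz2 and Cd68, both highest in tetraploid II, and 0 of 20 lymphocyte, 17 erythroid and megakaryocyte or 23 neural and glial markers passed 2-fold. Of 26 skeletal and cardiac muscle genes 1 was higher, and of 21 cartilage genes 1 was lower. Of 25 endothelial and of 22 epithelial markers 2 each were higher and 0 lower. Of 7 X-inactivation and Y-linked genes 4 were higher and 1 lower, which rested on tetraploid II.

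Over all genes 2.78% were at least 2-fold higher and 3.58% lower, or 6.36% in either direction. Of the 1139 measured genes of the 46 lists, 274 passed 2-fold, a larger share. A list count above the share over all genes was therefore usual and does not mark a list out. At least 2-fold higher and lower genes numbered 8 and 4 of 40 for the Wnt pathway, 5 and 6 of 40 for BMP and TGF-beta, 5 and 3 of 17 for the IGF axis, 2 and 9 of 31 for FGF, PDGF and HGF, and 5 and 2 of 18 for Hippo and YAP targets. The counts were 2 and 6 of 27 for p53 targets, 3 and 1 of 20 for G1 regulators, 0 and 5 of 21 for immediate early genes, and 4 and 3 of 15 for marrow niche factors. Collagens gave 2 and 1 of 21, proteoglycans and matrix glycoproteins 12 and 4 of 36, integrins 3 and 4 of 26, retinoid and steroid enzymes 7 and 5 of 26, MHC class I 2 and 2 of 16, complement and acute phase 3 and 8 of 17, heat shock genes 1 and 2 of 14 and other patterning factors 2 and 6 of 46. None of 31 oxidative phosphorylation, 27 lysosome or 9 metal-handling genes passed 2-fold on either side.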
